A study of Mus musculus with 15 samples.

Results

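The mitosis genes followed here are 46 genes chosen for their known part in mitotic entry, the spindle, the kinetochore and cytokinesis, out of 52844 genes with a transcript in the deposited tables. The list was drawn up by gene function, with earlier results of these data known, and all 46 were abundant enough to be tested (14968 genes passed the same filter). They were measured by RNA sequencing of polyadenylated RNA from jejunal epithelial cells of 15 CC027/GeniUnc mice, an inbred strain of the Collaborative Cross, in 5 groups of 3 mice, 1 library each.

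The PBS mice received phosphate-buffered saline by gavage and were not challenged. The sensitized controls received 2 mg of peanut extract by gavage weekly for 3 weeks and 5 mg in week 4, and were not challenged. The 3 challenged groups had the same sensitization, then 12 mg of peanut extract by gavage, and their jejunum was taken 30, 60 or 120 min later. The epithelium was released from 4 cm of jejunum, taken 6 cm beyond the pylorus, after 75 min in EDTA and DTT. No group gavaged without peanut before collection was analysed here, so time since gavage and handling cannot be told apart from challenge. Mouse age and sex are not in the labels used here, and mice are numbered 1 to 3 within a group only to name them. Nothing beyond different numbers in the labels says that the samples are separate animals, so p-values measure the spread between these samples.

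In the small intestine, division is confined to the crypts: stem cells at the crypt base and the transit-amplifying cells above them divide, while the cells of the villus have left the cell cycle. Mitosis genes are switched on together late in the cycle. Early in the cycle a complex with the MuvB core holds them down, and later the same core, joined by B-Myb and then FOXM1, activates them through a promoter element called the cell cycle genes homology region (CHR), often beside CCAAT boxes bound by NF-Y. The transcripts are then used within a short window: cyclin B and CDK1 start mitosis, kinetochores and motors move the chromosomes, the anaphase-promoting complex with CDC20 triggers their separation, and a ring of anillin and its regulators divides the cell. In whole epithelium, as here, fewer dividing cells and less of these RNAs per cell cannot be told apart.

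The libraries held 15661513 to 22691349 estimated counts, of which mitochondrially encoded genes took 13.76% (120 min mouse 1) to 33.24% (60 min mouse 3). The 8 epithelial markers summed to 8245 to 11471 CPM (counts scaled to library size) in every library, and Epcam was at 754 to 1420 CPM. The 11 stem cell markers summed to 891 to 1832 CPM. Leukocyte markers were present and uneven: the 11 T cell and intraepithelial lymphocyte genes summed to 31.7 to 355 CPM, with the highest mean level in sensitized control 3. The 6 tested stroma and endothelium genes had a mean log2 CPM of 4.42 in 30 min mouse 1 and between -1.16 and 0.97 elsewhere. The part of leukocytes and stromal cells in the results was not tested.

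The mitosis genes were lowest in the sensitized controls. The 46 genes together summed to 860, 818 and 731 CPM in the 3 sensitized controls, and to 1194, 942 and 979 CPM in the PBS mice. After challenge the sums were 1196, 1492 and 1056 CPM at 30 min, 1295, 1309 and 1230 CPM at 60 min, and 902, 1109 and 1458 CPM at 120 min. All 12 other libraries thus lay above all 3 sensitized controls in this sum. The sensitized controls had the lowest group mean for 45 of the 46 genes; the exception, the securin gene Pttg1, was lowest at 60 min. The highest group mean was at 30 min for 19 genes, at 60 min for 16, at 120 min for 10 and in the PBS mice for 1.

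**Figure D1:**
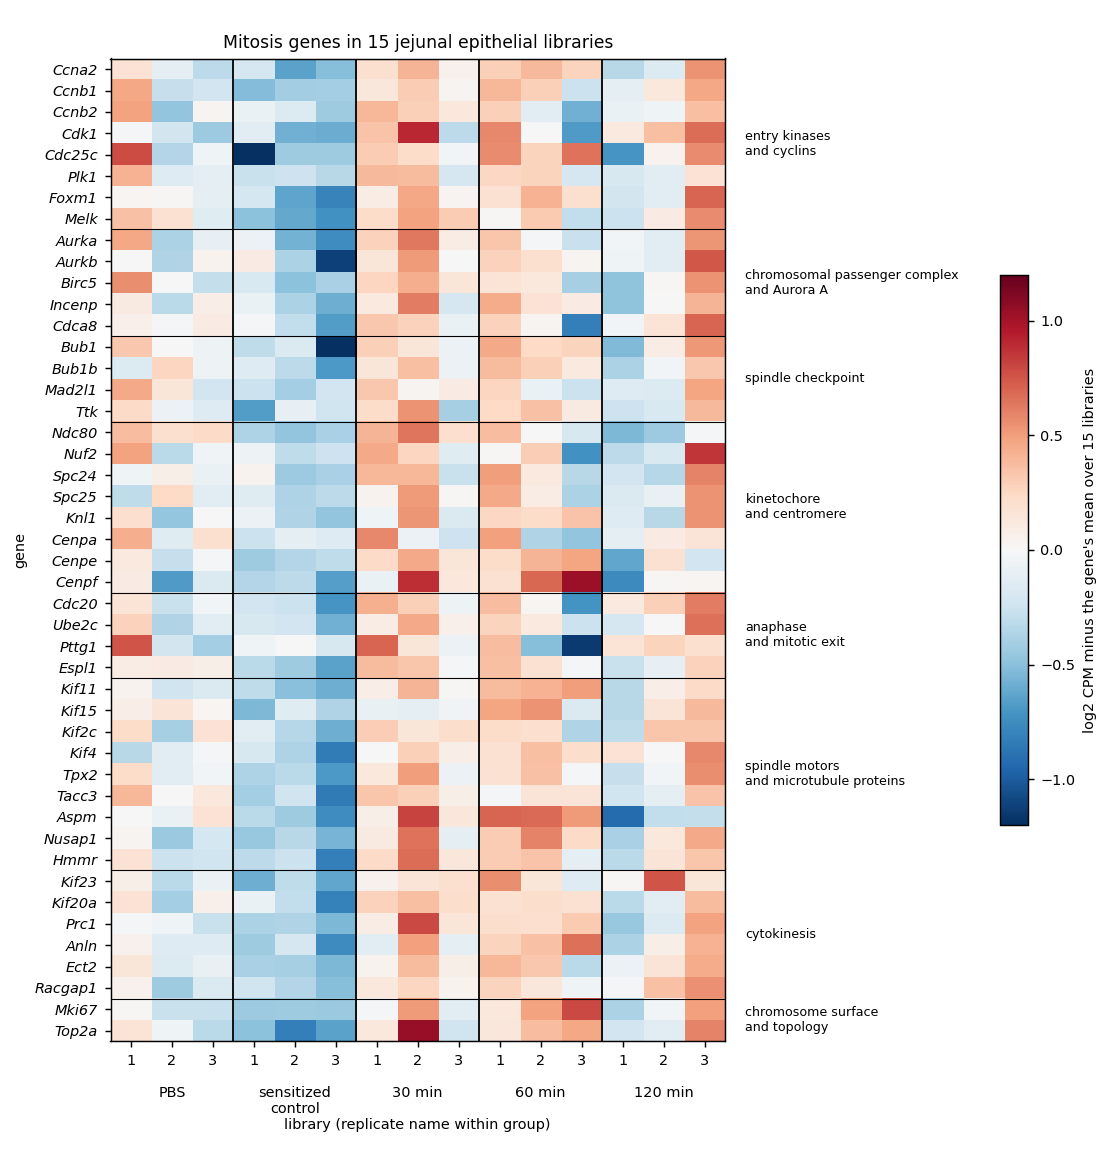
Log2 CPM of the 46 mitosis genes (rows, grouped by role) in the 15 libraries (columns), each gene shown as its difference from its own mean over the libraries; the colour scale ends at 1.2 in each direction. The 3 sensitized controls are the bluest block, with mouse 3 the lowest of all 15 libraries for 25 genes, while 120 min mouse 3 is the highest of all for 18.

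The pattern was strictest in 8 genes, in which each of the 12 other libraries exceeded all 3 sensitized controls: Mki67, Top2a, Ccnb1, Plk1, Melk, Espl1, Tpx2 and Ect2. Over all 14968 genes tested, 0.387% had it. Counting only the 9 challenged libraries, 11 mitosis genes lay above all 3 controls in every one, against 1.18% of all genes; the additional genes were Kif23, Kif4 and Racgap1. Single mice carried much of the spread. 120 min mouse 3 was the highest of its group for 42 of 46 genes and 120 min mouse 1 the lowest for 40, PBS mouse 1 was the highest of its group for 37, and sensitized control 3 was the lowest of its group for 32.

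Levels between genes were compared per length, in TPM (a unit scaled for transcript length and library size). The ubiquitin-conjugating enzyme gene Ube2c, which feeds the anaphase-promoting complex, was the most abundant at 43.6 ± 13.4 TPM (SD, n = 15 libraries). Cdc20 followed at 21.2 ± 6.82 TPM, Birc5 at 20.6 ± 5.91 TPM and Cdk1 at 19.2 ± 9.06 TPM, 3 neighbours whose spreads overlap. The lowest were Cenpf at 1.75 ± 0.869 TPM and Aspm at 1.13 ± 0.454 TPM, both long genes.

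The promoters show what these genes share in sequence. In RefSeq promoters of GRCm38.p6, from 250 bases before to 50 bases after the start, 38 of the 46 genes had an entry. The CHR letters TTTGAA, or TTCAAA on the other strand, stood in 28 of the 38 (73.7%), against 18.1% of all 27025 promoters of this length. CCAAT, or ATTGG on the other strand, stood in 26 (68.4%), against 37.9%, and at least 2 copies in 18 (47.4%), against 12.2%. Both motifs occurred together in 23 (60.5%), against 7.1%. A match of these letters is a description and not evidence of binding. The 120 bases before the start are shown for genes that the results turn on, to show how the matches are placed and, in Tacc3, a promoter without one. They read 5′ to 3′ on the gene's strand, with CHR and CCAAT letters of either strand in capitals.

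Kif11, chr19:37376262-37376381, plus strand: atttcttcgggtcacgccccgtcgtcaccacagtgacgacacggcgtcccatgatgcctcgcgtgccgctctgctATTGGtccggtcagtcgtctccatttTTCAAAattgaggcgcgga
Top2a, chr11:99024190-99024309, minus strand: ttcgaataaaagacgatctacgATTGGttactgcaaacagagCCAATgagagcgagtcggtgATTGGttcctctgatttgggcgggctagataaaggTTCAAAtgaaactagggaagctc
Mki67, chr7:135716380-135716499, minus strand: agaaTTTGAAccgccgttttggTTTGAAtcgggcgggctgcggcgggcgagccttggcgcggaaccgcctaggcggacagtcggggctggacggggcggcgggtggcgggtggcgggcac
Ect2, chr3:27153879-27153998, minus strand: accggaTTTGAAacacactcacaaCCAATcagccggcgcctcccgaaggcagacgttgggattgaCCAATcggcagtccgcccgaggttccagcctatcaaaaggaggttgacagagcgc
Hmmr, chr11:40733438-40733557, minus strand: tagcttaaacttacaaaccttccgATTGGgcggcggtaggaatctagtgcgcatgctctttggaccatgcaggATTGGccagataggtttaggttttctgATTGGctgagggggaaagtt
Kif23, chr9:61946800-61946919, minus strand: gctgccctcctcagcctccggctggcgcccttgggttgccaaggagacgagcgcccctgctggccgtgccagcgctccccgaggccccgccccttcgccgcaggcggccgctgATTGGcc
Racgap1, chr15:99651657-99651776, minus strand: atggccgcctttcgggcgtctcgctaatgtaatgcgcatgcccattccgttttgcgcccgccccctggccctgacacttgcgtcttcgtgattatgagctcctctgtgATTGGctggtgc
Tacc3, chr5:33658008-33658127, plus strand: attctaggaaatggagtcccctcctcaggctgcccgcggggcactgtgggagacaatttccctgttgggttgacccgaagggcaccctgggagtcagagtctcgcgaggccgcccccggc

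Of the 28 genes with CHR letters, 12 had a match before the start and 16 only after it. Kif11 has an ATTGG that begins 45 bases and a TTCAAA that begins 19 bases before the start. Top2a holds 3 CCAAT letters and a TTCAAA in this stretch, Ect2 one TTTGAA and a pair of CCAAT, and Mki67 a pair of TTTGAA with its CCAAT letters further upstream. In Hmmr, Kif23 and Racgap1 the printed stretch holds ATTGG, and TTTGAA lies 8, 2 and 5 bases after the start, outside it. Tacc3, which had the smallest p among the 46 genes for sensitized controls against PBS mice, has neither motif in the 300-base window.

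Sensitized controls were first compared with PBS mice. All 46 genes had negative log2 fold changes, with a median of -0.35 and a range from -0.9 (Cdc25c) to -0.19 (Racgap1), but 0 passed edgeR's quasi-likelihood test at an adjusted p under 0.05, as 0% of all genes did. At an unadjusted p under 0.05 they numbered 14, against 0.855% of all genes in this direction, and 20 had no overlap between groups, against 4.1% of all genes. DESeq2 and limma-voom also called 0 at an adjusted p under 0.05. The count of 14 became 6 without PBS mouse 1 and 5 without sensitized control 3, with medians of -0.24 and -0.27. All genes tested had a median within 0.02 of 0 in each of the comparisons described here.

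Each challenged group was then compared with the sensitized controls. These comparisons share their 3 controls with each other and with the comparison above, so a low value in the controls gives a negative sign there and a positive sign here. At 30 min all 46 genes had positive log2 fold changes, with a median of 0.61 and a range from 0.25 (Kif15) to 1.06 (Top2a). None passed at an adjusted p under 0.05 by edgeR (0% of all genes), DESeq2 or limma-voom. At an unadjusted p under 0.05 there were 36 genes, against 2.72% of all genes in this direction, and 36 had no overlap, against 6.49%. The count was 23 without 30 min mouse 2, 23 without sensitized control 3, and 29 without 30 min mouse 1, the library rich in stromal RNA.

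At 60 min 45 genes were positive, with a median of 0.59 and a range from -0.21 (Pttg1) to 1.19 (Cdc25c). Again 0 passed by edgeR, where 0.00668% of all genes did, and 0 by limma-voom, but 11 passed by DESeq2, where 1.1% of all genes with an adjusted p passed upward. An unadjusted p under 0.05 was reached by 30 genes, against 6.49% of all genes in this direction, and 30 had no overlap, against 9.37%. Without 60 min mouse 1, 6 passed by edgeR, and so did 1.43% of all genes upward.

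At 120 min all 46 were again positive, with a median of 0.49, and only Racgap1 passed (adjusted p = 0.0484); 0.728% of all genes passed upward. An unadjusted p under 0.05 was reached by 26 genes, against 8.79% of all genes in this direction. The groups did not overlap for 16, against 13.3% of all genes. Without 120 min mouse 3 the count of 26 became 6, the median 0.28, and 4 genes turned negative. Without sensitized control 3 it became 11.

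**Figure D2:**
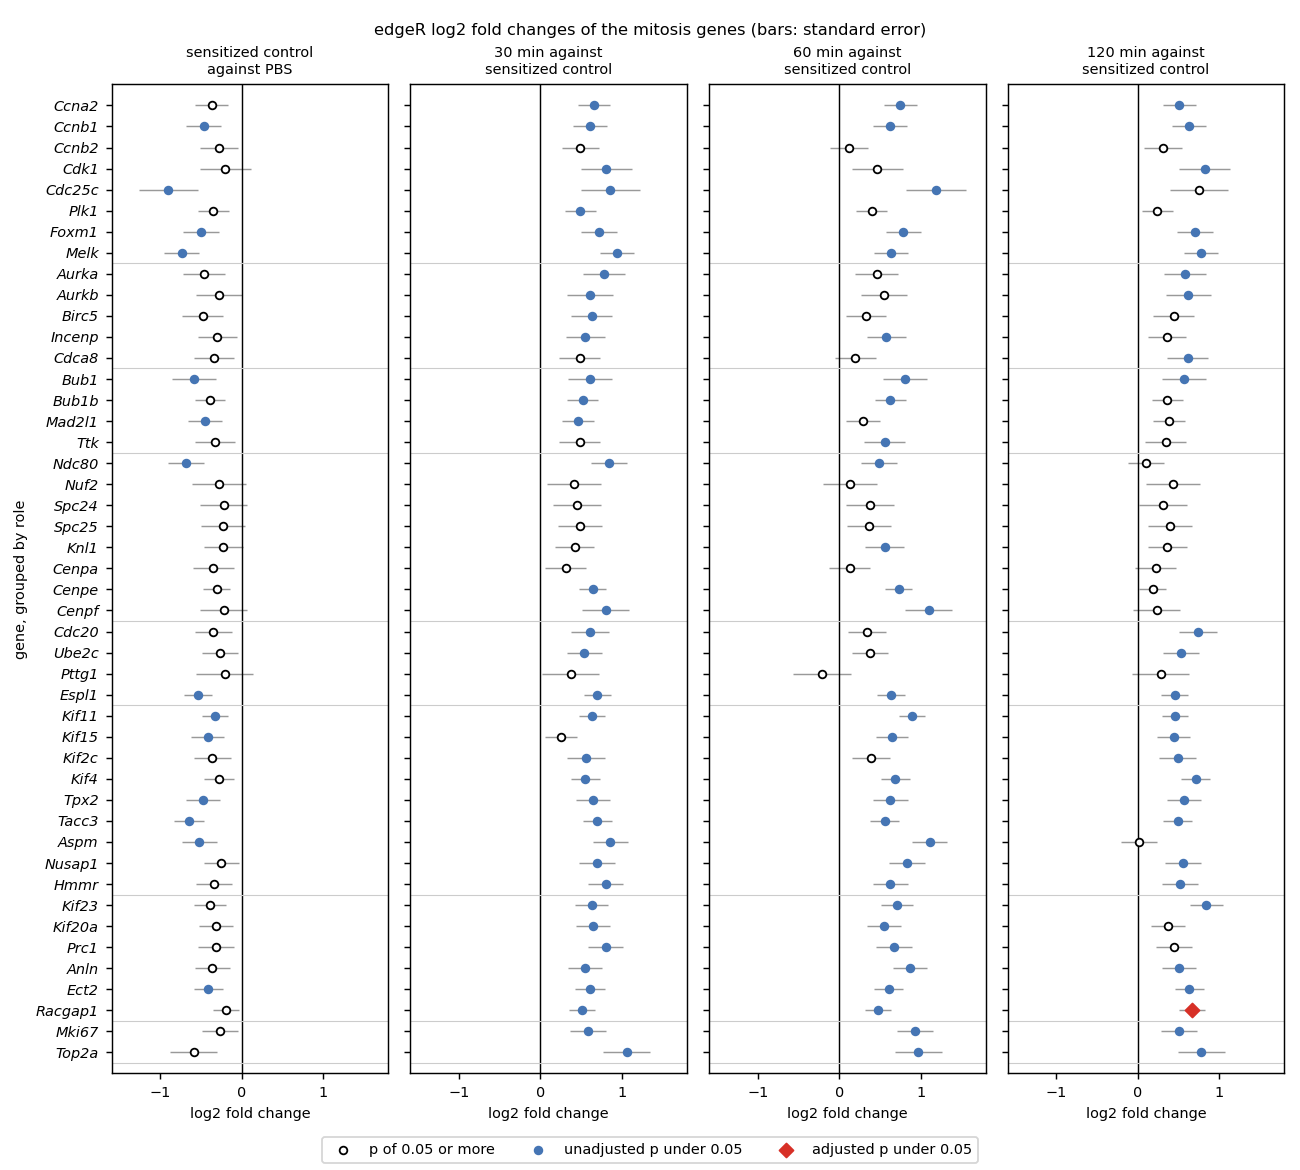
Log2 fold changes of the 46 genes (rows, grouped by role) with standard errors, by edgeR, in 4 comparisons that share the sensitized controls. Open circles have an unadjusted p of 0.05 or more, blue circles a smaller one, and the red diamond is Racgap1 at 120 min, the only gene past an adjusted p of 0.05.

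Among the 8 entry kinases, cyclins and their regulators, the median log2 fold change was -0.42 in sensitized controls against PBS mice, then 0.69, 0.63 and 0.67 at 30, 60 and 120 min against the sensitized controls. Ccnb1 encodes cyclin B1, the partner of CDK1. It was at 28.6, 17.2 and 17.7 CPM in the PBS mice, 14.5, 15.6 and 15.7 CPM in the sensitized controls, 22.8, 25.7 and 21.3 CPM at 30 min, 27.4, 25.4 and 17.4 CPM at 60 min and 19.3, 22.7 and 28.6 CPM at 120 min. The 3 sensitized controls lie within 14.5 to 15.7 CPM, below every other library, and the log2 fold changes were 0.61 ± 0.21 (SE), 0.62 ± 0.21 and 0.63 ± 0.21 at 30, 60 and 120 min, with edgeR adjusted p of 0.941, 0.287 and 0.145. Melk encodes a mitotic kinase. It was at 17.1, 15.2 and 12.1 CPM in the PBS mice, 9.53, 8.78 and 8.12 CPM in the sensitized controls, 15.6, 18.7 and 16.5 CPM at 30 min, 13.5, 16.7 and 10.9 CPM at 60 min and 11.2, 14.3 and 19.9 CPM at 120 min. Again no other library reached down to the controls. Its log2 fold change was -0.74 ± 0.21 in sensitized controls against PBS mice (edgeR adjusted p = 1), the second smallest p among the 46 genes there, and 0.94 ± 0.21 at 30 min (edgeR adjusted p = 0.876), the smallest there.

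Cdk1 encodes the mitotic kinase itself and was less even. It was at 13.4, 11.7 and 10.1 CPM in the PBS mice, 12.4, 9.16 and 9.04 CPM in the sensitized controls, 17.3, 25.6 and 11 CPM at 30 min, 20.3, 13.6 and 8.52 CPM at 60 min and 14.8, 17.5 and 21.7 CPM at 120 min. The 60 min mice spanned from 8.52 CPM, the lowest of the 15 libraries, to 20.3 CPM, and the log2 fold changes were 0.81 ± 0.31, 0.47 ± 0.31 and 0.82 ± 0.31 at the 3 times. Plk1 encodes the polo-like kinase that acts at the centrosome, kinetochore and midzone. It was at 33.6, 22.6 and 23.2 CPM in the PBS mice, 21, 21.2 and 20.1 CPM in the sensitized controls, 33.1, 32.8 and 21.9 CPM at 30 min, 29.9, 30.3 and 22 CPM at 60 min and 22.1, 22.9 and 28.4 CPM at 120 min. The controls were lowest, but 30 min mouse 3, 60 min mouse 3 and 120 min mouse 1 lay at 21.9 to 22.1 CPM, just above them, and the log2 fold change ended at 0.24 ± 0.19 at 120 min. Foxm1 encodes the late cell cycle activator of the set. It was at 18, 17.9 and 16.5 CPM in the PBS mice, 15.3, 11.4 and 10.2 CPM in the sensitized controls, 18.8, 24.4 and 18.1 CPM at 30 min, 20.1, 23.7 and 20.2 CPM at 60 min and 15.2, 16.2 and 28.8 CPM at 120 min. Only 120 min mouse 1 fell within the range of the controls after challenge, and log2 fold changes were 0.72 ± 0.22, 0.79 ± 0.22 and 0.7 ± 0.22. Ccna2, Ccnb2 and Cdc25c make up the rest: Ccna2 had 0.66 ± 0.2, 0.75 ± 0.2 and 0.51 ± 0.2 at the 3 times, Ccnb2 had 0.12 ± 0.23 at 60 min, and Cdc25c, the phosphatase that activates CDK1, had 1.19 ± 0.37.

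Of the chromosomal passenger complex and Aurora A, 5 genes, the medians were -0.34 in sensitized controls against PBS mice and 0.61, 0.46 and 0.58 at 30, 60 and 120 min against the sensitized controls. Aurkb, the kinase of the complex, was at 10.5, 8.22 and 10.9 CPM in the PBS mice, 11.3, 8.13 and 4.87 CPM in the sensitized controls, 11.7, 15.1 and 10.5 CPM at 30 min, 12.8, 12.1 and 10.8 CPM at 60 min and 10.2, 9.65 and 17.7 CPM at 120 min. Sensitized control 3 was far below the other 2 controls, and control 1 overlapped the challenged mice at all 3 times. Birc5, the survivin subunit that brings the complex to the centromere, was at 24.9, 16.8 and 13.9 CPM in the PBS mice, 14.9, 12 and 12.9 CPM in the sensitized controls, 20.2, 22.9 and 18.7 CPM at 30 min, 18.9, 18.4 and 12.8 CPM at 60 min and 12.1, 17.1 and 24.6 CPM at 120 min. At 60 min and at 120 min 1 mouse of each group was within the range of the controls, and the log2 fold changes were 0.63 ± 0.25, 0.33 ± 0.25 and 0.44 ± 0.25. Aurka, Incenp and Cdca8 were positive at all 3 times, between 0.2 and 0.78.

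The 4 spindle checkpoint genes, whose proteins delay anaphase until each kinetochore is attached, had medians of -0.42, 0.5, 0.59 and 0.37 in the same order. Bub1 was at 13, 10.4 and 9.96 CPM in the PBS mice, 8.41, 9.21 and 4.52 CPM in the sensitized controls, 12.6, 11.5 and 9.89 CPM at 30 min, 14.2, 12.2 and 12.5 CPM at 60 min and 7.16, 11 and 14.9 CPM at 120 min. Sensitized control 3 had the lowest value by a wide margin, and 120 min mouse 1 lay below the other 2 controls. Its log2 fold changes were -0.59 ± 0.27, 0.61 ± 0.27, 0.81 ± 0.27 and 0.57 ± 0.27. Bub1b, Mad2l1 and Ttk had smaller values, from 0.29 to 0.63 after challenge.

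The 8 kinetochore and centromere genes had medians of -0.25, 0.46, 0.44 and 0.27 in the same order, and their highest log2 fold change at 120 min was 0.43 (Nuf2). Ndc80, the microtubule-binding subunit of the outer kinetochore, was at 7.28, 6.41 and 6.61 CPM in the PBS mice, 4.36, 4.04 and 4.31 CPM in the sensitized controls, 7.46, 8.77 and 6.49 CPM at 30 min, 7.28, 5.64 and 4.93 CPM at 60 min and 3.86, 4.16 and 5.54 CPM at 120 min. The sensitized controls spanned 4.04 to 4.36 CPM, below all PBS, 30 min and 60 min mice, while the 120 min mice returned to 3.86 and 4.16 CPM in 2 of 3. Its log2 fold changes were 0.84 ± 0.22 at 30 min and 0.1 ± 0.22 at 120 min, and -0.74 ± 0.22 for 120 against 30 min (edgeR adjusted p = 0.107). Cenpa, the histone variant that marks centromeres, was at 22.8, 15.2 and 19.2 CPM in the PBS mice, 14.1, 15.6 and 15.1 CPM in the sensitized controls, 25.2, 16 and 14.2 CPM at 30 min, 23.7, 13.1 and 12.1 CPM at 60 min and 15.5, 18 and 18.8 CPM at 120 min. It overlapped the controls at every time and had the smallest values of the set at 30 min after Kif15, 0.31 ± 0.25.

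Cenpe and Cenpf encode large proteins of the outer kinetochore. Cenpe was at 33, 25.2 and 30 CPM in the PBS mice, 22.6, 23.8 and 24.7 CPM in the sensitized controls, 35.6, 41.7 and 33.7 CPM at 30 min, 35.4, 40.5 and 42.4 CPM at 60 min and 19.7, 34.6 and 26 CPM at 120 min. All 6 mice at 30 and 60 min exceeded the controls, and 120 min mouse 1 lay below them. Its log2 fold change was 0.73 ± 0.17 at 60 min and 0.18 ± 0.17 at 120 min. Cenpf was at 18.1, 10.6 and 15 CPM in the PBS mice, 13.3, 13.6 and 10.7 CPM in the sensitized controls, 16, 31.3 and 18.5 CPM at 30 min, 19.2, 27.4 and 34.5 CPM at 60 min and 10, 17.1 and 17.2 CPM at 120 min. It was highest in 60 min mouse 3 and 30 min mouse 2, and its log2 fold change there was 1.1 ± 0.29 (edgeR adjusted p = 0.214). Nuf2, Spc24, Spc25 and Knl1, partners of Ndc80 in the outer kinetochore, lay between 0.13 and 0.56 at the 3 times.

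Of the 4 genes of anaphase and mitotic exit, Cdc20, the activator of the anaphase-promoting complex, was at 45.7, 34 and 40 CPM in the PBS mice, 34.8, 34.3 and 25 CPM in the sensitized controls, 54.9, 49.8 and 39.1 CPM at 30 min, 52.8, 41.6 and 24.8 CPM at 60 min and 44.3, 50 and 62.5 CPM at 120 min. Each 30 and 120 min mouse exceeded the controls, and 60 min mouse 3 did not. Espl1, the protease separase that cuts cohesin, was at 15.4, 15.6 and 15.2 CPM in the PBS mice, 11.6, 10.8 and 9.32 CPM in the sensitized controls, 18.9, 18.3 and 14.4 CPM at 30 min, 18.6, 16.5 and 14.3 CPM at 60 min and 12.1, 13.6 and 17.6 CPM at 120 min. The PBS mice agreed within 0.4 CPM, and all 12 other libraries exceeded the controls. Its log2 fold changes were -0.54 ± 0.17, 0.7 ± 0.17, 0.64 ± 0.17 and 0.45 ± 0.17, with edgeR adjusted p of 1, 0.876, 0.207 and 0.181. Pttg1, the securin that restrains separase, was at 9.94, 5.05 and 4.44 CPM in the PBS mice, 5.69, 5.92 and 5.16 CPM in the sensitized controls, 9.55, 6.5 and 5.59 CPM at 30 min, 7.61, 4.14 and 2.66 CPM at 60 min and 6.59, 7.09 and 6.71 CPM at 120 min. It was the one gene with a negative log2 fold change at 60 min, -0.21 ± 0.36, and 60 min mouse 3 held its lowest value of all 15 libraries. Ube2c had 0.54 ± 0.22, 0.38 ± 0.22 and 0.53 ± 0.22.

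The 9 spindle motors and microtubule proteins had medians of -0.36, 0.65, 0.65 and 0.49. Kif11, the kinesin that pushes the spindle poles apart, was at 27.1, 22.3 and 23.3 CPM in the PBS mice, 21.4, 18.6 and 17.6 CPM in the sensitized controls, 27.8, 34.9 and 26.6 CPM at 30 min, 34.3, 35.1 and 37.4 CPM at 60 min and 20.9, 27.8 and 30.8 CPM at 120 min. At 60 min the 3 mice fell within 34.3 to 37.4 CPM, above every control and every PBS mouse. Its log2 fold change there, 0.89 ± 0.16, had the smallest p of the set (unadjusted p = 3.53e-05, edgeR adjusted p = 0.175), and 120 min mouse 1 was back among the controls. Tpx2, which activates Aurora A on the spindle, was at 26, 20.5 and 21.9 CPM in the PBS mice, 17.3, 17.8 and 13.9 CPM in the sensitized controls, 24.4, 31.7 and 21.3 CPM at 30 min, 25.4, 28.5 and 22 CPM at 60 min and 18.4, 21.8 and 32.8 CPM at 120 min. All 12 other libraries exceeded the controls, with log2 fold changes of 0.65 ± 0.21, 0.63 ± 0.21 and 0.57 ± 0.21. Tacc3, which crosslinks spindle microtubules, was at 24.7, 18.7 and 20.4 CPM in the PBS mice, 14.1, 15.9 and 10.4 CPM in the sensitized controls, 23.6, 22.8 and 19.6 CPM at 30 min, 18.4, 20.8 and 20.8 CPM at 60 min and 15.8, 17.4 and 23.7 CPM at 120 min. All 3 PBS mice exceeded the sensitized controls and its log2 fold change was -0.65 ± 0.18 (edgeR adjusted p = 1).

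Aspm encodes a protein of the spindle pole. It was at 12.2, 11.5 and 13.7 CPM in the PBS mice, 9.74, 9.05 and 7.28 CPM in the sensitized controls, 12.8, 21.3 and 13.4 CPM at 30 min, 19.7, 19.5 and 17.3 CPM at 60 min and 6.4, 9.92 and 10 CPM at 120 min. The 60 min mice were all above the PBS mice and controls, and the 120 min mice were all below every 30 and 60 min mouse. Its log2 fold change was 1.11 ± 0.22 at 60 min (edgeR adjusted p = 0.175) and 0.01 ± 0.22 at 120 min against the controls. Kif4, the chromosome-arm kinesin, was at 14, 16.1 and 17.5 CPM in the PBS mice, 15.5, 13.7 and 9.89 CPM in the sensitized controls, 17.6, 21.5 and 18.6 CPM at 30 min, 20, 22.7 and 20.5 CPM at 60 min and 19.9, 17.7 and 26.4 CPM at 120 min. All 9 challenged mice exceeded the controls, and its log2 fold change at 120 min was 0.71 ± 0.18 (edgeR adjusted p = 0.0669). Kif15, a helper of Kif11, was at 17.3, 18.2 and 16.7 CPM in the PBS mice, 11.3, 14.8 and 12.8 CPM in the sensitized controls, 15.4, 15.1 and 15.9 CPM at 30 min, 22.7, 23.8 and 14.5 CPM at 60 min and 13, 18.3 and 21.4 CPM at 120 min. It had the lowest value of the set at 30 min, 0.25 ± 0.2, and 0.65 ± 0.2 at 60 min. Hmmr, a spindle assembly factor, was at 20.3, 15.1 and 15.3 CPM in the PBS mice, 14.5, 15.1 and 10.2 CPM in the sensitized controls, 21.2, 28.7 and 19.8 CPM at 30 min, 22.3, 22.9 and 16.6 CPM at 60 min and 14.4, 20.1 and 22.7 CPM at 120 min. All 9 challenged mice except 120 min mouse 1 exceeded the controls. Kif2c and Nusap1 were positive at the 3 times, from 0.39 to 0.83.

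The 6 cytokinesis genes had medians of -0.34, 0.62, 0.64 and 0.57. All 6 reached an unadjusted p under 0.05 at 30 and at 60 min by edgeR, against 2.72% and 6.49% of all genes upward. So did 8 of the 9 spindle motors and microtubule proteins, and both Mki67 and Top2a, at each of these times. Racgap1 and Kif23 encode the subunits of centralspindlin, which bundles the midzone and recruits Ect2. Racgap1 was at 34.2, 24.6 and 29.2 CPM in the PBS mice, 27.9, 25.8 and 23.2 CPM in the sensitized controls, 36.1, 39.5 and 34 CPM at 30 min, 39.6, 36.3 and 31.8 CPM at 60 min and 32.5, 42.1 and 48.3 CPM at 120 min. All 9 challenged mice exceeded the controls, and it rose at 120 min with a log2 fold change of 0.67 ± 0.16 (edgeR adjusted p = 0.0484), the only call among the 46 genes against the sensitized controls. This call was lost when any 1 of the 6 libraries compared was left out, with log2 fold changes from 0.54 to 0.8. It was also lost by limma-voom, with the correction for transcript length, without mitochondrial genes and with only the 6 libraries fitted. Kif23 was at 46.6, 35.3 and 42 CPM in the PBS mice, 29.6, 35.8 and 28.8 CPM in the sensitized controls, 45.8, 49.2 and 50.6 CPM at 30 min, 65.1, 48.9 and 39.8 CPM at 60 min and 44.7, 74.7 and 49 CPM at 120 min. All 9 challenged mice exceeded the controls, 120 min mouse 2 had the highest value, and the log2 fold change at 120 min was 0.84 ± 0.2 (edgeR adjusted p = 0.0511).

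Prc1, which crosslinks the midzone microtubules, was at 20.3, 19.8 and 17 CPM in the PBS mice, 15.7, 15.9 and 14.1 CPM in the sensitized controls, 21.8, 35.5 and 22.6 CPM at 30 min, 23.7, 23.6 and 25.4 CPM at 60 min and 14.9, 18.3 and 28.7 CPM at 120 min. The value of 30 min mouse 2 stands apart, and 120 min mouse 1 lay among the controls. Anln, the anillin of the contractile ring, was at 21.9, 19 and 18.9 CPM in the PBS mice, 15.7, 18.3 and 12.5 CPM in the sensitized controls, 19.3, 29.6 and 19.6 CPM at 30 min, 25.3, 26.9 and 33.3 CPM at 60 min and 16.2, 22.2 and 28.1 CPM at 120 min. The 60 min mice were above all PBS mice and controls, with a log2 fold change of 0.87 ± 0.21 (edgeR adjusted p = 0.177). Ect2, the exchange factor that activates RhoA for the ring, had 0.61 ± 0.18, 0.61 ± 0.18 and 0.63 ± 0.18, and Kif20a 0.65 ± 0.21, 0.55 ± 0.21 and 0.37 ± 0.21.

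The 2 remaining genes coat or untangle the chromosomes. Mki67, which encodes the chromosome-coating protein Ki-67 that is stained to mark dividing cells, was at 175, 144 and 144 CPM in the PBS mice, 128, 129 and 127 CPM in the sensitized controls, 171, 247 and 158 CPM at 30 min, 189, 243 and 301 CPM at 60 min and 133, 170 and 244 CPM at 120 min. The 3 controls agreed within 2 CPM and all other libraries exceeded them. The log2 fold changes were 0.58 ± 0.22, 0.93 ± 0.22 and 0.51 ± 0.22, with edgeR adjusted p of 0.941, 0.175 and 0.239. Top2a, the topoisomerase that decatenates sister chromatids, was at 83.7, 72.3 and 59.7 CPM in the PBS mice, 53.2, 42.3 and 48 CPM in the sensitized controls, 81.8, 154 and 63.3 CPM at 30 min, 82.3, 96.5 and 103 CPM at 60 min and 63.8, 68.5 and 113 CPM at 120 min. All 12 other libraries exceeded the controls, and 30 min mouse 2, at 154 CPM, stands above every other library.

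**Figure D3:**
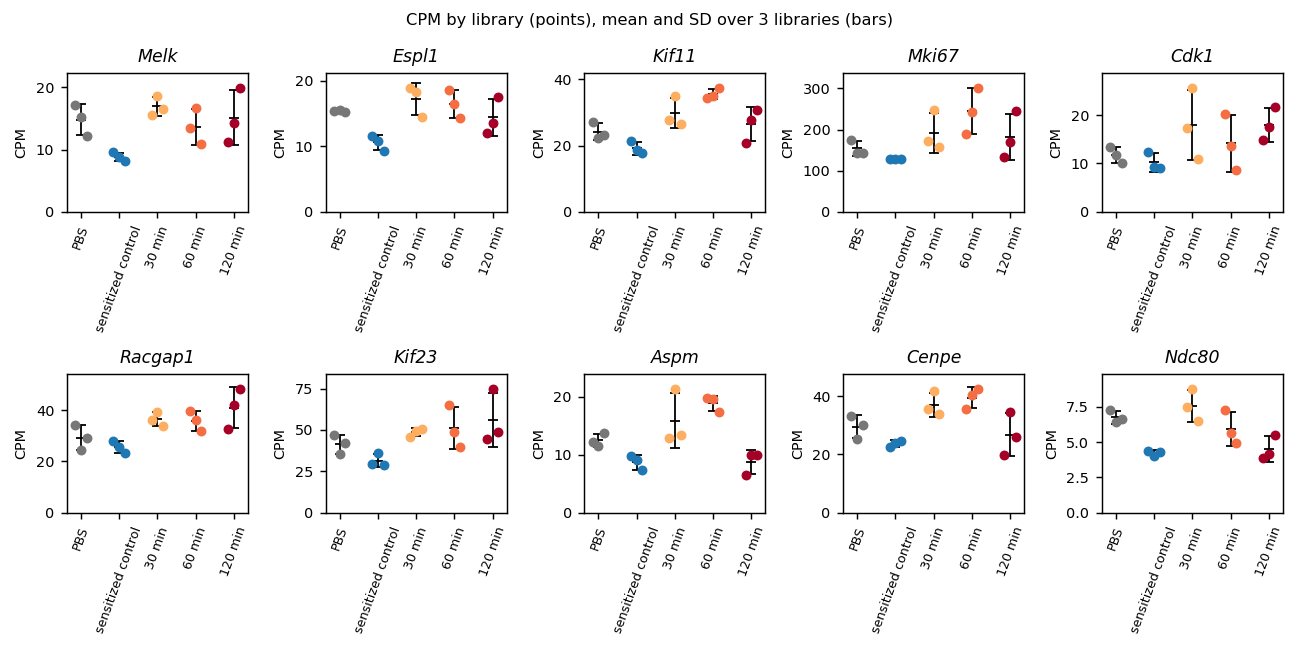
CPM of 10 mitosis genes in each library (points; 3 mice in a group), with the mean and SD of each group. The sensitized controls have the lowest group mean in all 10 genes. At 120 min Aspm (6.4 to 10 CPM) and Ndc80 (3.86 to 5.54 CPM) overlap them, and so do Cenpe and Kif11.

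The times after challenge were also compared with each other. From 30 to 60 min 20 genes had positive and 26 negative log2 fold changes, with a median of -0.06; 16 were negative without 30 min mouse 2 and 32 without 30 min mouse 3. None passed by edgeR, where 0% of all genes did, nor by DESeq2 or limma-voom, and 0 reached an unadjusted p under 0.05, against 4.46% of all genes; without 30 min mouse 2, 5 did upward, and without 60 min mouse 1, 6 did downward. The 3 smallest p belonged to Kif15 (0.4 ± 0.2), Kif11 (0.26 ± 0.15) and Pttg1 (-0.58 ± 0.35). From 60 to 120 min the counts were again 20 and 26, and the median was -0.08; 40 were negative without 60 min mouse 3 and 38 without 120 min mouse 3. Only Aspm passed, and it fell: its log2 fold change was -1.1 ± 0.22 (edgeR adjusted p = 0.0284), where 0.534% of all genes passed downward. An unadjusted p under 0.05 was reached by 4 genes, Aspm, Cenpe (-0.56 ± 0.17), Cenpf (-0.87 ± 0.29) and Kif11 (-0.42 ± 0.15), and 4 did not overlap between groups. These counts are near the background of 9.37% and 9.78% of all genes, and without 120 min mouse 3 the unadjusted count was 14. For fits with a library left out, the share of all genes at an unadjusted p under 0.05 was not computed. From 30 to 120 min 35 genes were negative, with a median of -0.1; with single libraries left out this count ran from 23 (without 120 min mouse 1) to 43 (without 120 min mouse 3). None passed by edgeR or limma-voom, where 0.414% of all genes passed downward by edgeR, and 2 passed by DESeq2, where 2.83% of all genes with an adjusted p did. Aspm came closest (-0.85 ± 0.21, edgeR adjusted p = 0.0718), 3 genes reached an unadjusted p under 0.05 (9.39% of all genes; 8 without 120 min mouse 3) and 2 did not overlap (10.1%).

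The call for Aspm did not survive every choice. It was lost when 60 min mouse 2 or 3 or 120 min mouse 1 or 3 was left out, though the log2 fold change stayed between -0.95 and -1.23 in those fits. It was also lost with the correction for transcript length and with only the 6 libraries fitted. Aspm is also one of the longest genes of the set, and fold changes at 60 min moved with length. Over the 46 genes, the Spearman correlation between log2 fold change and effective length was 0.69 at 60 min against the controls and -0.62 for 120 against 60 min; over all genes tested the values were 0.33 and -0.25. The points share the same libraries, so these are descriptions. At 30 min against the controls the values were 0.26 and 0.1. The 8 genes of at least 4000 bases (Kif11, Kif4, Espl1, Knl1, Cenpe, Cenpf, Aspm and Mki67) had a median log2 fold change of 0.81 at 60 min, and the 18 genes under 2000 bases one of 0.37. For 120 against 60 min the medians were -0.42 and 0.1.

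The relation with length differed between libraries. Within 60 min mice 2 and 3 the level of the mitosis genes, relative to their means, correlated with length at 0.75 and 0.7 (0.33 and 0.34 over all genes), within 60 min mouse 1 at -0.28. A negative sign also held in 30 min mouse 1, at -0.55 (-0.19 over all genes), and in 120 min mouse 1, at -0.42 (-0.12 over all genes). It held as well in 120 min mice 2 and 3, at -0.08 and -0.29, and in the sensitized controls, at -0.32, -0.15 and -0.36. PBS mice 1 and 2 had -0.36 and -0.06. The sign was positive in PBS mouse 3, at 0.14, and in 30 min mice 2 and 3, at 0.29 and 0.08. Of the 60 min mice, mouse 3 also had the highest mitochondrial share of all libraries, and mouse 2 did not, at 18.25%. With the length trend of each library removed, a setting chosen after the data were seen, Aspm had -0.82 for 120 against 60 min (edgeR adjusted p = 0.0643) and 45 genes stayed positive at 60 min with a median of 0.55. The part of RNA quality in these values was not tested.

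**Figure D4:**
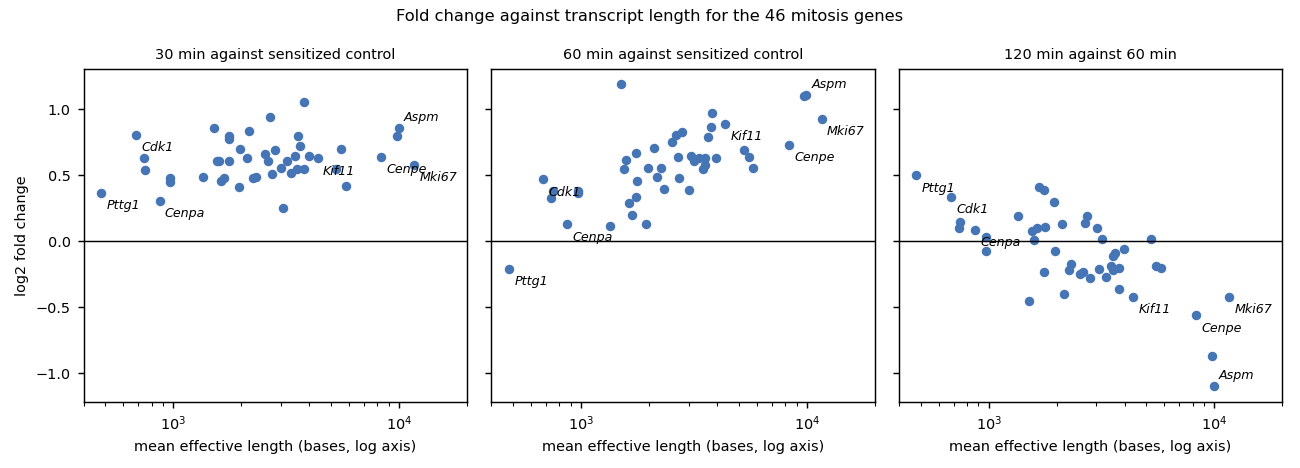
Log2 fold change (edgeR) against mean effective length on a log axis for the 46 genes in 3 comparisons. At 30 min all points are positive with a weak relation to length (Spearman 0.26), at 60 min they climb with length (0.69), and for 120 against 60 min they descend (-0.62).

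How a gene's RNA is split between its transcripts bears on single genes. The shares given here are of TPM, which is scaled for transcript length. A transcript shorter than the others of its gene holds a smaller share of the counts than of the TPM. Correcting for the effective length of the transcripts in each library moved the log2 fold change of 22 genes by more than 1.5 times, or through 0, in at least one of the 4 comparisons with the sensitized controls. Prc1 went from 0.8 to 0.1 ± 0.2 at 30 min and from 0.67 to -0.02 ± 0.2 at 60 min, and it turned from 0.44 to -0.13 at 120 min and from -0.32 to 0.11 in sensitized controls against PBS mice; its 291-base transcript Prc1-213 took 0% to 51.5% of the TPM of the gene in the sensitized controls and 11% to 18.2% at 60 min. Cdc25c went the other way, from 1.19 to 2.34 ± 0.57 at 60 min, where the 362-base Cdc25c-203 took 0% to 80.8%. For Cdk1, a retained-intron transcript took 40.6% of TPM on average over the 15 libraries, and for Cenpa a transcript subject to nonsense-mediated decay took 40.2%, so their gene sums are not all coding RNA. The other signs that turned were those of Racgap1 in sensitized controls against PBS mice (-0.19 to 0.01), and of Ndc80 (0.1 to -0.09) and Aspm (0.01 to -0.01) at 120 min. With the correction, 44 genes were negative in sensitized controls against PBS mice, and 46, 44 and 43 were positive at 30, 60 and 120 min. The medians of the set with this correction were -0.39, 0.57, 0.6 and 0.48 in the order used above.

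The challenged mice were also compared with the PBS mice. At 30 min 43 genes were positive with a median of 0.22; 0 passed by edgeR (0% of all genes), DESeq2 or limma-voom, and 2 reached an unadjusted p under 0.05, Prc1 (0.48 ± 0.22) and Hmmr (0.46 ± 0.21), against 1.57% of all genes in this direction. At 60 min 35 were positive with a median of 0.23; 0 passed (0% of all genes), by DESeq2 and limma-voom as well, and 8 reached an unadjusted p under 0.05, against 5.89%. The smallest p were for Kif11 (0.56 ± 0.15), Cenpf (0.89 ± 0.29) and Mki67 (0.66 ± 0.22), all genes of at least 4000 bases. Fold changes at 60 min moved with length here too, with a Spearman correlation of 0.65 over the mitosis genes and 0.35 over all genes. All 8 genes of at least 4000 bases were positive, with a median of 0.49, but only 9 of the 18 genes under 2000 bases were. With the correction for transcript length, 30 mitosis genes were positive and 16 negative at 60 min. At 120 min 34 were positive with a median of 0.12; 0 passed by edgeR, DESeq2 or limma-voom, while 1.18% of all genes did by edgeR. An unadjusted p under 0.05 was reached by 5, Racgap1 (0.48 ± 0.16), Kif4 (0.43 ± 0.18) and Kif23 (0.44 ± 0.2) above the PBS mice and Ndc80 (-0.58 ± 0.22) and Aspm (-0.51 ± 0.21) below, against 18.8% of all genes in either direction. Without 120 min mouse 3, 13 were positive and 33 negative.

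The list of other genes of the pathway was described in the same comparisons. Of 78 other mitosis genes (condensins, further kinetochore proteins, motors and ubiquitin enzymes), 69 were negative in sensitized controls against PBS mice, with a median of -0.28, and 74, 67 and 66 positive at 30, 60 and 120 min, with medians of 0.46, 0.38 and 0.28. The lowest edgeR adjusted p in those 4 comparisons were 1, 0.876, 0.175 and 0.0745, and 34, 27 and 20 genes reached an unadjusted p under 0.05 upward after challenge, against 2.72%, 6.49% and 8.79% of all genes. The smallest p belonged to the condensin gene Ncapg (-0.58 ± 0.2) and Kif20b (-0.53 ± 0.2) in sensitized controls, to G2e3 (0.83 ± 0.2) and Kif22 (0.77 ± 0.2) at 30 min, to the microtubule polymerase gene Ckap5 (0.59 ± 0.14) and the histone kinase gene Haspin (0.77 ± 0.18) at 60 min, and to Haspin (0.66 ± 0.18) and the centrosome kinase gene Nek2 (0.6 ± 0.16) at 120 min. The ubiquitin ligase gene G2e3 was at 9.51, 7.54 and 8.78 CPM in the PBS mice, 6.51, 7 and 5.93 CPM in the sensitized controls, 11.3, 14.7 and 8.79 CPM at 30 min, 12.4, 10.1 and 11.1 CPM at 60 min and 5.79, 6.67 and 5.59 CPM at 120 min. It fell from 60 to 120 min by 0.9 ± 0.2 (edgeR adjusted p = 0.0404) and from 30 to 120 min by 0.94 ± 0.2 (edgeR adjusted p = 0.042), with every 120 min mouse below every 30 and 60 min mouse. Both calls were lost with the correction for transcript length (-0.59 and -0.6), and when 120 min mouse 1 or 3 was left out. The first was also lost without 60 min mouse 2 or 3, and with only the 6 libraries fitted, where 0 of all genes passed. The second was also lost without 30 min mouse 1 or 2 or 120 min mouse 2.

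The 39 DNA replication genes, active in the S phase that precedes mitosis, had medians of -0.16, 0.34, 0.21 and 0.31 in the same 4 comparisons, with lowest edgeR adjusted p of 1, 0.941, 0.254 and 0.105; 7, 6 and 5 reached an unadjusted p under 0.05 upward after challenge, against the same 2.72%, 6.49% and 8.79% of all genes, and 2 did downward at 60 min. Among those with the smallest p were the polymerase gene Pold1 (0.54 ± 0.17 at 60 min), the ligase gene Lig1 (0.58 ± 0.2 at 30 min) and the flap endonuclease gene Fen1 (0.76 ± 0.23 at 120 min). The mean log2 CPM of the mitosis genes minus that of the replication genes was -0.2, -0.16 and -0.2 in the sensitized controls. At 30 min it was 0.14, 0.19 and 0.17, and at 60 min it was 0.23, 0.22 and 0.27. The 120 min mice had -0.17, 0.27 and -0.01, and the PBS mice 0.29, -0.1 and 0.02. The sensitized controls were thus below every other library but 120 min mouse 1 in this difference, while the mean level of the replication genes alone overlapped between the sensitized controls and each other group.

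**Figure D5:**
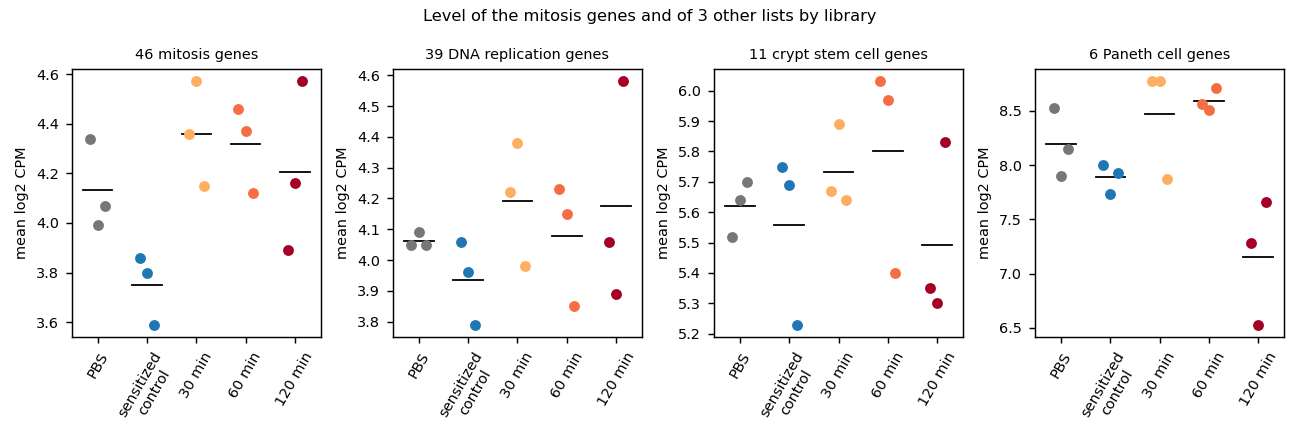
Mean log2 CPM of 4 gene lists in each library (points) with the mean of each group (lines); each panel has its own axis, which does not start at 0. The mitosis genes of the 3 sensitized controls (3.59 to 3.86) lie below all other libraries, the replication and stem cell lists overlap between groups, and the Paneth cell list is lowest at 120 min.

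Among the 20 regulators of mitotic transcription, the medians were -0.05, 0.07, 0.05 and 0.21. Mybl2, which encodes B-Myb, had -0.44 ± 0.22 in sensitized controls against PBS mice and 0.62 ± 0.22, 0.48 ± 0.22 and 0.81 ± 0.22 after challenge (edgeR adjusted p at least 0.0866). Nfya, the DNA-binding subunit of the CCAAT factor NF-Y, fell at 120 min. It was at 22.9, 29.2 and 25.7 CPM in the PBS mice, 32.1, 24.9 and 26.2 CPM in the sensitized controls, 22.2, 22.7 and 20.6 CPM at 30 min, 22.1, 19.7 and 22 CPM at 60 min and 15.7, 15 and 20.3 CPM at 120 min. Its log2 fold change against the controls was -0.71 ± 0.15 (edgeR adjusted p = 0.0312), opposite in sign to the 46 genes, and the call was lost when any 1 of the 6 libraries was left out (-0.6 to -0.85). Among the 9 cell cycle inhibitors and p53 targets, Cdkn1a, which encodes p21, was at 142, 137 and 145 CPM in the PBS mice, 140, 165 and 148 CPM in the sensitized controls, 130, 143 and 188 CPM at 30 min, 184, 158 and 133 CPM at 60 min and 219, 284 and 200 CPM at 120 min. At 120 min each mouse exceeded all others, and it rose against the PBS mice by 0.73 ± 0.16 (edgeR adjusted p = 0.0443), with 0.63 ± 0.16 against the sensitized controls (edgeR adjusted p = 0.0657). The call against the PBS mice was lost when any 1 of the 6 libraries was left out (0.55 to 0.82).

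Markers of other cells of the epithelium and of its neighbours differed between some of the groups. The 11 stem cell genes had a mean log2 CPM of 5.75, 5.69 and 5.23 in the sensitized controls and 5.52, 5.64 and 5.7 in the PBS mice. These groups overlapped, where the mitosis genes did not. At 30 min the values were 5.67, 5.89 and 5.64, and at 60 min 6.03, 5.97 and 5.40. Each time overlapped the sensitized controls, but 9 of the 11 genes had positive log2 fold changes, with medians of 0.18 and 0.26. An unadjusted p under 0.05 by edgeR was reached upward by 1 and 3 genes, against 2.72% and 6.49% of all genes. At 120 min the stem cell genes were at 5.35, 5.3 and 5.83, with the highest value in mouse 3, which also had the most mitosis gene RNA. The 15 brush border genes had medians of 0.11, -0.51, -0.16 and 0.1 in the 4 comparisons with the sensitized controls, with lowest edgeR adjusted p of 1, 0.961, 0.38 and 0.288. All 15 were positive in sensitized controls against PBS mice, and 15, 14 and 6 were negative at 30, 60 and 120 min. Of them, 9, 1 and 0 lay below the controls without overlap, against 1173, 1368 and 1986 of all 14968 genes. The 6 tested Paneth cell genes, from cells at the crypt base, had medians of -0.35, 0.63, 0.6 and -0.69; Lyz1, a seventh marker, was at 0 to 0.562 CPM in all libraries and was not tested. From 60 to 120 min the 6 genes had a median of -1.36 and 4 fell: Itln1 (-1.72 ± 0.27, edgeR adjusted p = 0.019), Ang4 (-2.15 ± 0.43, edgeR adjusted p = 0.0404), Defa24 (-1.25 ± 0.27, edgeR adjusted p = 0.0404) and Defa30 (-1.19 ± 0.27, edgeR adjusted p = 0.0488). From 30 to 120 min their median was -1.34 and 3 fell: Defa30 (-1.4 ± 0.27, edgeR adjusted p = 0.0357), Itln1 (-1.29 ± 0.27, edgeR adjusted p = 0.042) and Defa24 (-1.22 ± 0.27, edgeR adjusted p = 0.0497). By edgeR 0.534% of all genes passed downward from 60 to 120 min and 0.414% from 30 to 120 min. G2e3 fell over both intervals and Aspm over the first.

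The stem cell receptor gene Lgr5 also fell from 60 to 120 min (-1.09 ± 0.25, edgeR adjusted p = 0.0476), while the epithelial genes Cdx1 (0.57 ± 0.12, edgeR adjusted p = 0.0386) and Krt20 (0.68 ± 0.15, edgeR adjusted p = 0.0404) rose. Cdx1 was higher at 120 min in the other 3 comparisons too, by 0.56 ± 0.12 against 30 min (edgeR adjusted p = 0.044), 0.54 ± 0.12 against the sensitized controls (edgeR adjusted p = 0.0435) and 0.63 ± 0.12 against the PBS mice (edgeR adjusted p = 0.0279). Each of these marker calls was lost when 120 min mouse 1 was left out. For 120 against 60 min, 0 of all genes passed without 120 min mouse 3 or with only the 6 libraries fitted. The marker calls for that interval were thus lost there too. Without 60 min mouse 3, 0 of all genes passed downward for that interval, so the falls of the Paneth cell genes and Lgr5 were lost.

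At 30, 60 and 120 min against the sensitized controls, the 8 goblet cell genes had medians of -0.28, -0.7 and -0.77, with lowest edgeR adjusted p of 0.941, 0.227 and 0.0871. The 5 erythroid genes had -2.05, -1.19 and -0.91, and all 5 were negative at each time. The 11 T cell and intraepithelial lymphocyte genes had 0.16, -0.63 and -1.64, and the 7 B and plasma cell genes -0.2, -0.54 and -1.76, with all genes of both lists negative at 120 min. None of the genes of these 4 lists passed against the sensitized controls by edgeR; the plasma cell gene Jchain fell at 120 min against the PBS mice (-2.66 ± 0.53, edgeR adjusted p = 0.043), a call also lost without 120 min mouse 1. The part of crypt, villus, blood and leukocyte shares in the values of the mitosis genes was not tested.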

How the data were processed

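Each of the 15 libraries, of polyadenylated jejunal epithelial RNA read as 151 bp pairs, has a deposited table per transcript. The authors' tables give, per the file headers, an estimated count, a TPM value and an effective length in bases for each of 139058 transcripts. Salmon 1.2.1, cutadapt 1.18 and the build mm10 are named in the submitters' processing notes. No label or header used here names the release of the transcript set.

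Transcripts were joined to genes through GENCODE M21: 137334 matched with their version, 137943 without it, and 1115 did not match (0.37% to 0.6% of counts). Estimated counts were summed per gene over 52844 genes and rounded. After edgeR's expression filter 14968 genes remained of 28797 with any count. All 15 libraries, with 15661513 to 22691349 counts each, were fitted together with TMM scaling and edgeR's quasi-likelihood test (10 residual degrees of freedom, common biological coefficient of variation 0.26), and p-values were adjusted by Benjamini-Hochberg over all genes. CPM and log2 CPM (prior count 2) use the same scaling; deposited TPM was summed per gene for levels between genes only.

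Alternatives were DESeq2, limma-voom, other size factors, no filter, a correction for transcript length, leaving out mitochondrial genes, fitting 6 libraries only, and leaving out each library. The edgeR script was tested on simulated counts. Libraries of 1 group differed by 19.7 to 236 times the sampling variance, so none was a repeat of another library of its group. Pairs across groups were not compared, and this check cannot show whether the libraries came from separate animals. The 46 genes and the lists beside them were chosen with earlier results of these data known. Genes were named by role; 16 chosen members and the 3 with the smallest p per comparison have values in every library, and genes of the other cell cycle lists were named when past an adjusted p of 0.05 or by the 2 smallest p. Cell type marker genes past an adjusted p of 0.05 were named after their values were seen. Promoters come from RefSeq (GRCm38.p6). Versions were R 4.3.3, edgeR 4.0.16, limma 3.58.1, DESeq2 1.42.0, Python 3.11.15, pandas 2.3.3 and scipy 1.17.1.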

Additional observations from a re-analysis of the deposited data

Results flagged for a closer look

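Among the genes of all lists, 9 differed between times after challenge by edgeR's quasi-likelihood test of the difference itself. All of them but Cdx1 and Krt20 fell. Over all genes tested, 0.534% passed downward for 120 against 60 min and 0.414% for 120 against 30 min, and 0% passed for 60 against 30 min. With only the 6 libraries fitted, or without 120 min mouse 1 or 3, 0 of all genes passed for 120 against 60 min. Of the mitosis genes, Aspm had a log2 fold change of -1.10 for 120 against 60 min (adjusted p = 0.0284). Beside them, G2e3 had -0.90 for 120 against 60 min (adjusted p = 0.0404) and -0.94 for 120 against 30 min (adjusted p = 0.042).

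The others were cell type markers. Of the Paneth cell genes, Itln1 had log2 fold changes of -1.72 for 120 against 60 min and -1.29 for 120 against 30 min, Defa24 had -1.25 and -1.22, Defa30 had -1.19 and -1.40, and Ang4 had -2.15 for 120 against 60 min. The stem cell gene Lgr5 had -1.09 for 120 against 60 min. The epithelial gene Cdx1 had 0.57 for 120 against 60 min and 0.56 for 120 against 30 min, and Krt20 had 0.68 for 120 against 60 min. Their adjusted p lay from 0.019 to 0.0497.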

How the results depend on the processing

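The median log2 fold change of the 46 genes moved by less than 1 SD between libraries in all 140 alternative values computed over the 10 comparisons, but single libraries shifted it and could turn its sign: with each left out it ran from 0.28 to 0.64 at 120 min against sensitized controls, from -0.15 to 0.24 against PBS mice, from -0.33 to 0.03 against 60 min and from -0.37 to 0.00 against 30 min. Leaving 1 of 3 libraries out can hardly move a group mean by 1 SD, so that limit says little about single libraries. The count past an adjusted p of 0.05 changed with the setting. At 60 min against sensitized controls it was 0, became 5 without the expression filter and 11 by DESeq2, and ran from 0 to 6 with single libraries left out. At 120 min it was 1. It became 2 with DESeq2 size factors, 5 without the filter, 6 by DESeq2 and 3 with each library's length trend removed (chosen after seeing the data), and 0 by limma-voom, with the correction for transcript length, without mitochondrial genes and with 6 libraries only; with single libraries left out it ran from 0 to 1. Over all genes the count upward there was 109, and became 135 with DESeq2 size factors, 161 without the filter, 422 by DESeq2, 262 with the length trend removed, 96 by limma-voom, 21 with the length correction, 99 without mitochondrial genes and 84 with 6 libraries only. For 120 against 60 min the count lower was 1. It became 3 by DESeq2 (416 lower over all genes, against 80), 0 with the length correction, with 6 libraries only and with the length trend removed, and ran from 0 to 3 with single libraries left out. For 120 against 30 min it went from 0 to 1 without the filter and 2 by DESeq2. Signs turned for some single genes. Among them were Cenpa at 60 min (-0.23 without 60 min mouse 1; -0.23 to 0.32 over single libraries left out) and Ndc80 at 120 min (-0.09 with the length correction, -0.08 without 120 min mouse 3; -0.08 to 0.18 over single libraries left out). These are not all. Against the sensitized controls, 4 mitosis genes were negative at 60 min without 60 min mouse 1, where 1 was with all libraries. At 120 min 4 were negative without 120 min mouse 3 and 2 without 120 min mouse 2, where 0 were with all libraries. The length correction also turned signs of Prc1, Racgap1 and Aspm, as given above. The causes were not tested. No paired analysis was possible because the replicate numbers only name the samples, and the animal numbers in the labels all differ. With 3 libraries a group, the low-count genes such as Ndc80 and Pttg1 have the least depth behind their values.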
